A study of Homo sapiens with 40 samples.

Results

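The transcripts described here are the 253 antisense noncoding transcripts that HEK293T cells, a human embryonic kidney cell line, held at a mean level of at least 1 CPM (CPM, the gene's count scaled so that a library's gene counts sum to 1000000) over 20 input libraries. They are the rows of the count table whose gene name ends in -AS1, with OIP5-AS1 (78.0 CPM) left out. The table has 57992 gene IDs and 1019 such rows, of which 765 lay below the minimum and 79 had no count in any of the 40 libraries. The mean input level chose the transcripts, so it is given as a description. Just inside the minimum were ZNF582-AS1 (1.00 CPM), PITPNA-AS1 (1.01 CPM) and KCNMB2-AS1 (1.02 CPM), and just outside were CPB2-AS1 (0.999 CPM), ADORA2A-AS1 (0.996 CPM) and MIS18A-AS1 (0.986 CPM).

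The study asked which RNAs lie near a chosen place in the cell. Cells carried APEX, a peroxidase that turns biotin-phenol into a short-lived radical that tags molecules around it, in 1 of 4 places: the mitochondrial matrix (MITO), the endoplasmic reticulum membrane (ERM), the cytosol (NES, named for a nuclear export signal) or the nuclear lamina (LMNB1, lamin B1). RNA was made more reactive by feeding a thionucleoside, 6-thioguanosine (s6G) or 4-thiouridine (s4U), at 100 µM for 5 h, then 0.5 mM biotin-phenol for 30 min and 1 mM H2O2 for 1 min. RNA before (input, IN) and after streptavidin beads (enriched, EN) was selected for poly(A) tails and sequenced.

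The 18 groups are an input and an enriched group for each of 9 arms. MITO cells received s6G, s4U, neither thionucleoside (APEX only) or neither thionucleoside nor biotin-phenol (unlabelled). ERM and NES cells received s6G. LMNB1 cells received s6G, no thionucleoside (APEX only) or neither agent (unlabelled). ERM had 4 libraries a group and every other arm 2, and all cells, the unlabelled ones included, carried a construct and received H2O2. Whether the constructs were stable or transient is not given in the sources used here, nor whether replicates came from separate cultures, so p-values measure the spread between these libraries. Enriched and input libraries of an arm are paired by replicate number, and the main tests leave this pairing out. In 8 libraries (the 4 enriched ERM libraries and the 4 LMNB1 s6G libraries) one label names s4U while the title names s6G. They were grouped by title.

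An antisense transcript runs from the strand opposite to another gene, its partner, after which it is named. Some overlap the partner's exons or introns and others start next to the partner's promoter and run the other way. Most are not translated. Many long noncoding RNAs stay in the nucleus near the place where they are made, and others are exported to the cytosol, and transcripts that run outwards from a promoter are often removed early by the nuclear RNA exosome. Promoters of mammalian genes that fire in both directions are commonly rich in G and C and seldom have a TATA box.

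All 253 transcripts matched the RefSeq gene table for GRCh38.p14, where 52 now have another symbol, and 193 had a strand and a promoter window there (250 bases before to 50 after the start). By start and strand, 94 lay head to head with their partner (opposite strands, starts within 1000 bases), 71 overlapped it in another way, 10 lay apart and 78 could not be placed. Starts are those of the promoter windows and spans those of the gene table, so a span can reach beyond the start used. The span of 112 overlapped the span of the partner, and the span of 71 of the 193 with a strand overlapped no gene on the other strand. FGD5-AS1 and NUTM2A-AS1 are among those that lay apart from the partner. The library kit is not described as keeping strand, and no strand setting of the counting is given in the sources used here, so reads of a transcript and of an overlapping partner cannot be told apart. This bears on each overlapping pair named here.

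Some promoter windows are printed for transcripts described below. The THAP9-AS1, THUMPD3-AS1, RUSC1-AS1 and SEMA3F-AS1 windows belong to transcripts called in more than one lamina comparison. PITRM1-AS1 is one of those with the largest difference between lamina and cytosol, a difference that is not independent of the choice of transcripts. They are RefSeq sequence of GRCh38.p14, 5′ to 3′ on the transcript's strand: chr4:82900867-82901166 (minus), chr3:9396574-9396873 (minus), chr1:155324127-155324426 (minus), chr3:50156036-50156335 (minus) and chr10:3141351-3141650 (plus). Capitals mark the CCAAT box (CCAAT), the TATA box (TATAA) and the GC box (GGGCGG) on either strand.
THAP9-AS1: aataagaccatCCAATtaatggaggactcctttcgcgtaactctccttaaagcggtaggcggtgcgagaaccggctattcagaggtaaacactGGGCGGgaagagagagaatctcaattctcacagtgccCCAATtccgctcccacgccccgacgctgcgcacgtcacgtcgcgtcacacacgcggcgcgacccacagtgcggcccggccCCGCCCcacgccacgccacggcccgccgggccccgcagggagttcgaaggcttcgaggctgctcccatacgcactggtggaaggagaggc
THUMPD3-AS1: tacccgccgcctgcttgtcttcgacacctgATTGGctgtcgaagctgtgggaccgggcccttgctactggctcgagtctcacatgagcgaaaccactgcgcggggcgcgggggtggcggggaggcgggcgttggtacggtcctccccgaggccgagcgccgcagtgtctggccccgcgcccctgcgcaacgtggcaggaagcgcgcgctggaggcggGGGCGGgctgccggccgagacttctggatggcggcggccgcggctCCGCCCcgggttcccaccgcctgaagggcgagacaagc
RUSC1-AS1: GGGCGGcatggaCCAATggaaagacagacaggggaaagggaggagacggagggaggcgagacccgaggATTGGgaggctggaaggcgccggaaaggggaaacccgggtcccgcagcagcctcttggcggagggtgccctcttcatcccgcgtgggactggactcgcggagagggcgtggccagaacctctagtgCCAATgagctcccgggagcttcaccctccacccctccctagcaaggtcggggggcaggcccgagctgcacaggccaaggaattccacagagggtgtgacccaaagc
SEMA3F-AS1: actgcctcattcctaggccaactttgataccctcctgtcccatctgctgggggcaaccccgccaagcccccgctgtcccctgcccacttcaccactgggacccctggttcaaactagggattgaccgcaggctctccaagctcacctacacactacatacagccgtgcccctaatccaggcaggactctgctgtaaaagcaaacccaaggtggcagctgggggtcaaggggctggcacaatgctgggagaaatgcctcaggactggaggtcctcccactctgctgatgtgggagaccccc
PITRM1-AS1: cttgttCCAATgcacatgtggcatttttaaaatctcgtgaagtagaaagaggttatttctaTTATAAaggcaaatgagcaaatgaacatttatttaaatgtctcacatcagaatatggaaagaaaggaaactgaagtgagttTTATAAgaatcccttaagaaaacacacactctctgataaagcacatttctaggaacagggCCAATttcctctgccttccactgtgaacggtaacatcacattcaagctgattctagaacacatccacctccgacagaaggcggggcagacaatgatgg

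The THAP9-AS1 window holds 2 CCAAT boxes and 2 GC boxes, THUMPD3-AS1 1 and 2, and RUSC1-AS1 3 and 1. SEMA3F-AS1 has none of the motifs. PITRM1-AS1 has 2 CCAAT boxes and TATAA 4 times, because TTATAA, found at 2 places, reads as TATAA on both strands, and its G and C content is 38.7%. Over the 193 windows a GC box was in 63.7%, against 44.6% of the 27305 RefSeq promoter windows of the same length, a TATA box in 7.25% against 21.1%, and a CCAAT box in 31.6% against 35.7%. The median G and C content was 67.0% against 58.3%. A match of letters is a description of the window.

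Libraries held 123341 to 14496768 gene counts. The inputs held markers of HEK293T cells (summed CPM 421 to 1078, with LHX1 the 1 marker of 9 below 1 CPM), while PTPRC, CD3E, HBB and COL1A2 were at 0 in all inputs. Summed haematopoietic markers were at 2.81 to 7.88 CPM, endothelial markers at 0 to 0.561 CPM and hepatocyte markers at 0 to 1.22 CPM. The fibroblast list summed to 18.5 to 88.1 CPM and consisted mostly of COL1A1 (46.6 CPM on average). Unlabelled MITO enriched replicate 1 stands apart with 123341 counts, which covered 108 of the 253 transcripts.

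The transcripts took 0.151 to 0.229% of input counts and 0.0954 to 0.335% of enriched counts. At the lamina the s6G enriched share was 0.320 ± 0.0217% (SD, n = 2) against 0.181 ± 0.00717% in input. The APEX-only lamina pair read 0.245 ± 0.0234% against 0.166 ± 0.0118%, and the unlabelled pair 0.209 ± 0.00314% against 0.180 ± 0.00478%. In each of these lamina arms both enriched libraries lay above both inputs. ERM (0.245 ± 0.00751% against 0.196 ± 0.0143%, n = 4) and NES (0.241 ± 0.00355% against 0.202 ± 0.0106%, n = 2) also had higher enriched shares. MITO s6G went the other way, at 0.107 ± 0.0158% against 0.200 ± 0.0376%, and there 36.1 to 58.2% of the enriched counts were mitochondrial RNA. MITO s4U (0.141 ± 0.0193% against 0.194 ± 0.0501%) and MITO APEX only (0.143 ± 0.0207% against 0.207 ± 0.0271%) were also lower after enrichment. The unlabelled MITO arm, without biotin-phenol, had 0.275 ± 0.00085% against 0.186 ± 0.05%, an enriched share above those of ERM, NES and APEX-only LMNB1.

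**Figure D1:**
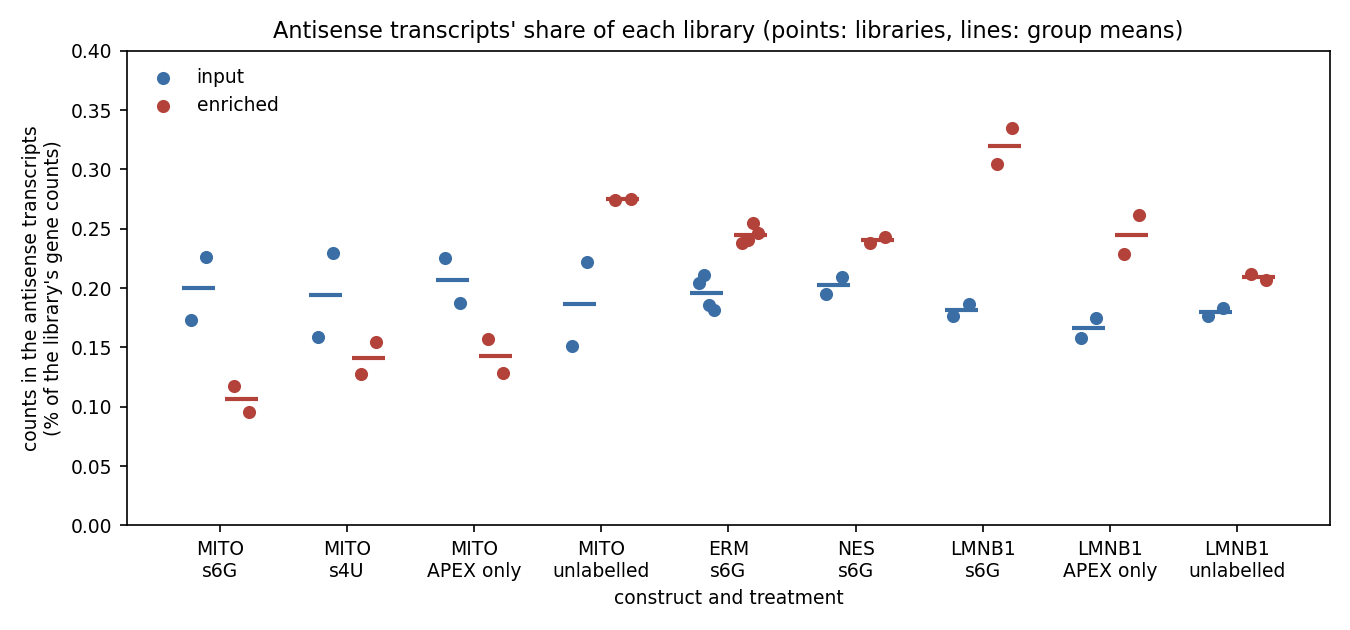
Share of each library's gene counts (y axis, %) in the 253 antisense transcripts, by construct and treatment (x axis). Points are libraries (blue input, red enriched) and lines are group means; the enriched LMNB1 s6G libraries are the highest of all and the enriched MITO s6G libraries the lowest.

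Input levels were low for most transcripts, with a median of 3.16 CPM. Only 2 exceeded 100 CPM, LRRC75A-AS1, now named SNHG29, a host of small nucleolar RNAs (280 CPM), and FGD5-AS1 (102 CPM). THAP9-AS1, next to the transposon-derived THAP9 gene, followed at 54.0 CPM. In all, 39 transcripts reached 10 CPM and 84 stayed below 2 CPM. CPM does not correct for length. Per length, the authors' deposited table of log2(TPM + 1), averaged over its 4 MITO input columns (each the sum of TPM over the 2 libraries of a group), put URB1-AS1 (7.42), ARRDC1-AS1 (7.32) and ATP2A1-AS1 (7.09) among the highest. On that scale LRRC75A-AS1 was at 6.69, THAP9-AS1 at 6.28 and FGD5-AS1 at 5.46.

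At the nuclear lamina the antisense transcripts as a group were shifted towards the enriched fraction. Of 248 tested, 12 rose and 2 fell in the enriched over the input LMNB1 s6G libraries (edgeR quasi-likelihood test, Benjamini-Hochberg adjusted p under 0.05). Among all genes tested 5.37% rose and 7.64% fell, so the share of transcripts that rose (4.84%) was near that of all genes, while fewer fell. The median log2 fold change was 0.67, against 0.13 for all genes. It was above 0 in 197 transcripts (79.4%, against 55.6% of all genes). Enriched and input libraries did not overlap in the higher direction for 151 transcripts, 60.9% against 44.9% of all genes, and in the lower direction for 15, 6.05% against 20.1%. In the bead fraction of whole cells, more molecules near the lamina and more label per molecule cannot be told apart, nor can fewer cells and less RNA per cell.

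Those that rose included SEMA3F-AS1, THUMPD3-AS1, FBXL19-AS1, RUSC1-AS1, THAP9-AS1, GABPB1-AS1, SLC25A25-AS1, PAXIP1-AS1, TMEM147-AS1, RPARP-AS1 and FGD5-AS1. Fitted log2 fold changes of the 12 ran from 0.67 for FGD5-AS1 to 2.37 for SEMA3F-AS1. LRRC75A-AS1 and VPS9D1-AS1 fell. Calls followed level: 9 rose and 2 fell of 39 transcripts at 10 CPM or more, 3 rose of 94 between 3 and 10 CPM, and none of 115 below 3 CPM was called. The median log2 fold change hardly differed over these classes (0.68, 0.56 and 0.71). Without 1 library the count fell to 3 (enriched replicate 1 or 2 left out) or 2 (input replicate 1 or 2 left out), while the median stayed at 0.50 to 0.65, and a fit blocked on the replicate number gave 19 rising and 2 falling. With total-count scaling, which moves the median of all genes to 0.35, 18 rose and none fell, and with RLE scaling 12 and none.

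SEMA3F-AS1 lies on chr3:50116022-50156085 (minus strand) and overlaps by 1028 bases the start of SEMA3F, which encodes a secreted semaphorin that guides axons. It read 37.9 and 36.9 CPM in the enriched LMNB1 s6G libraries and 6.11 and 6.40 CPM in their inputs. Both enriched libraries lay far above both inputs, with a log2 fold change of 2.37 ± 0.45 (SE, adjusted p = 0.00554). SEMA3F itself did not pass the test (-0.26 ± 0.98, adjusted p = 0.887). Fitted fold changes use TMM-scaled libraries and so differ somewhat from ratios of CPM.

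THUMPD3-AS1 (chr3:9385264-9397494, minus) overlaps by 1528 bases the end of THUMPD3, a tRNA methyltransferase gene. Its enriched libraries held 112 and 91.6 CPM and its inputs 28.7 and 20.6 CPM, and it rose by 1.85 ± 0.27 (adjusted p = 0.00122). THAP9-AS1 (chr4:82893452-82900916, minus) starts 181 bases from THAP9 and overlaps it by 182 bases. It held 213 and 224 CPM against 68.6 and 56.7 CPM and rose by 1.59 ± 0.23 (adjusted p = 0.00121). The calls of THUMPD3-AS1 and THAP9-AS1 held with each library left out in turn. The partners gave 0.41 ± 0.34 for THUMPD3 and 0.39 ± 0.49 for THAP9, neither passing the test.

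RUSC1-AS1 (chr1:155316854-155324176, minus) starts 331 bases from the promoter-window start of RUSC1, which encodes a scaffold protein with RUN and SH3 domains. The spans overlap by 3283 bases, so the RUSC1 span reaches beyond that start. RUSC1-AS1 held 18.7 and 21.0 CPM against 6.11 and 3.69 CPM and rose by 1.81 ± 0.43 (adjusted p = 0.0148), while RUSC1 fell by 1.03 ± 0.20 (adjusted p = 0.00539). FBXL19-AS1, head to head with the gene of an F-box protein that binds unmethylated CpG DNA, held 27.0 and 26.9 CPM against 7.52 and 5.63 CPM and rose by 1.83 ± 0.47 (adjusted p = 0.0228). FBXL19 gave -0.15 ± 0.30. In each of these pairs the antisense transcript was above its partner on the log2 scale.

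PAXIP1-AS1, now PAXIP1-DT, rose together with PAXIP1, a gene of the DNA damage response: by 1.14 ± 0.31 (adjusted p = 0.0283) and 1.43 ± 0.28 (adjusted p = 0.00597). LRRC75A-AS1 held 204 and 165 CPM against 261 and 264 CPM and fell by 0.71 ± 0.21 (adjusted p = 0.0390). VPS9D1-AS1, inside VPS9D1, held 25.1 and 21.6 CPM against 39.2 and 44.6 CPM and fell by 1.05 ± 0.31 (adjusted p = 0.0450). Both falls missed the threshold with RLE scaling, total-count scaling or no filter. Of the other calls, those of RUSC1-AS1, FBXL19-AS1, PAXIP1-AS1, FGD5-AS1 and VPS9D1-AS1 were lost without any 1 of the 4 libraries. Their largest adjusted p values were 0.251, 0.250, 0.257 and 0.442 without input replicate 2 and, for VPS9D1-AS1, 0.277 without enriched replicate 2. SEMA3F-AS1 reached 0.0573 without enriched replicate 1, 0.0712 without input replicate 1 and 0.0834 without input replicate 2. LRRC75A-AS1 reached 0.326 without enriched replicate 2, 0.136 without input replicate 1 and 0.115 without input replicate 2.

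**Figure D2:**
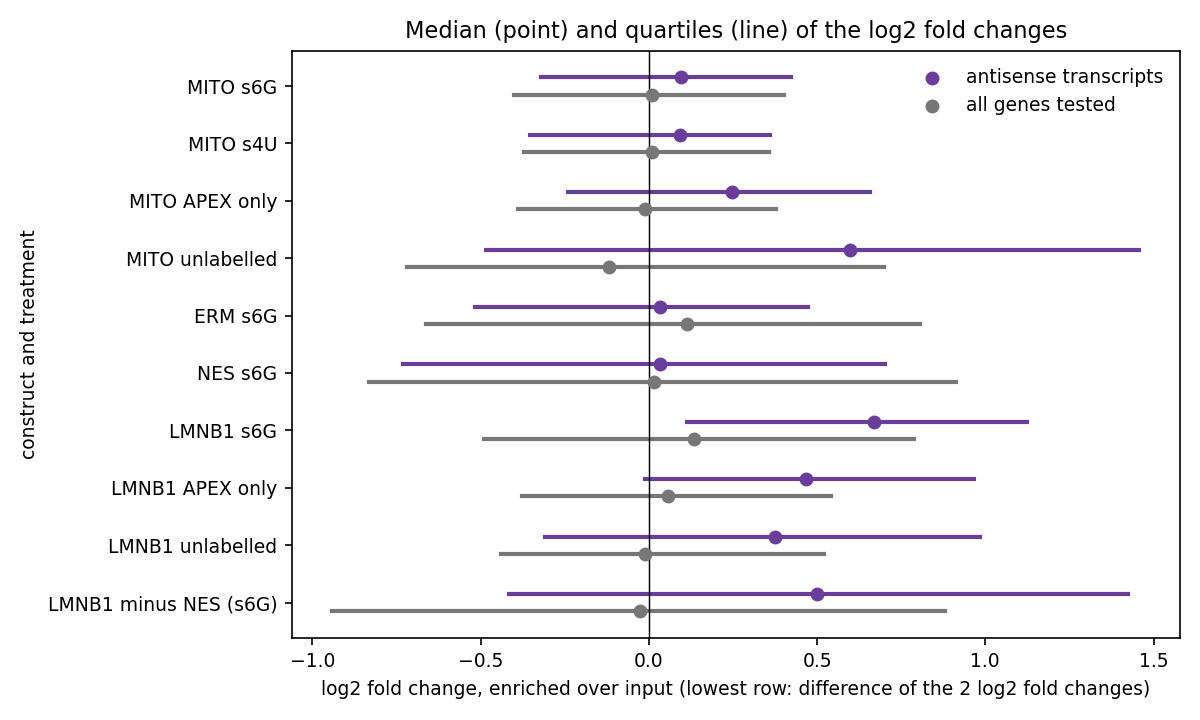
Median (point) and quartiles (line) of the log2 fold change between enriched and input libraries (x axis) by construct and treatment (y axis), for the antisense transcripts (purple) and all genes tested (grey), with the LMNB1 minus NES difference at the bottom. The antisense median is farthest above that of all genes in the unlabelled MITO arm, followed by the LMNB1 s6G arm, and in the ERM arm it lies below it.

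Much of the lamina shift was also present without the thionucleoside. In the APEX-only LMNB1 libraries the median was 0.47, against 0.06 for all genes, and 184 of 248 transcripts were above 0 (74.2% against 53.3%). Only THAP9-AS1 and THUMPD3-AS1 rose and none fell (0.411% and 1.02% of all genes). The groups did not overlap for 114 in the higher and 16 in the lower direction, against 35.3% and 19% of all genes. THAP9-AS1 held 81.6 and 95.9 CPM against 24.3 and 26.4 CPM and rose by 1.67 ± 0.23 (adjusted p = 0.0230). THUMPD3-AS1 held 90.6 and 85.3 CPM against 30.3 and 26.1 CPM and rose by 1.50 ± 0.26 (adjusted p = 0.0264). RUSC1-AS1 also had enriched libraries above its inputs (24.6 and 16.1 against 4.96 and 5.38 CPM) but did not pass (1.83 ± 0.42, adjusted p = 0.0528). SEMA3F-AS1 held 2.92 and 2.25 CPM against 2.12 and 1.96 CPM, a log2 fold change of 0.20 ± 0.49 (adjusted p = 0.885). Both calls were lost without any 1 of the 4 libraries (adjusted p 0.209 to 0.294), and with the replicate block 5 rose.

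In the unlabelled LMNB1 libraries, which measure what the beads hold without biotin-phenol, none of 248 transcripts was called (0.0242% of all genes rose and 0.0121% fell). By unadjusted p under 0.05 there were 39, and DESeq2 called 3. Leaving out enriched replicate 1 gave 14 calls and leaving out enriched replicate 2 gave 3. The median was 0.37, against -0.01 for all genes, and the groups did not overlap for 61 in the higher and 35 in the lower direction (15.3% and 22.1% of all genes). RUSC1-AS1 held 19.4 and 15.5 CPM against 5.88 and 5.81 CPM there (1.59 ± 0.43, adjusted p = 0.135). THAP9-AS1 (0.39 ± 0.24) and THUMPD3-AS1 (0.50 ± 0.27) were nearer to their inputs, and SEMA3F-AS1 had no count in either enriched library.

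Tested against each other, the s6G and APEX-only enrichments at the lamina gave no call among the transcripts or other genes (0% higher and 0% lower), although 2 transcripts had an unadjusted p under 0.05, while DESeq2 called none. SEMA3F-AS1 differed by 2.17 ± 0.66 (adjusted p = 0.171) and THAP9-AS1 by -0.07 ± 0.32 (adjusted p = 0.973). Against the unlabelled arm 3 transcripts were higher with s6G and none lower (1.51% and 1.19% of all genes): FGD5-AS1, SEMA3F-AS1 and SSSCA1-AS1, now ZNRD2-DT. FGD5-AS1 held 180 and 187 CPM with s6G against inputs of 105 and 94.9 CPM, and 89.8 and 83.3 CPM unlabelled against inputs of 147 and 117 CPM. The difference of its log2 fold changes was 1.25 ± 0.27 (adjusted p = 0.0366). SEMA3F-AS1 had 275 and 316 counts in the s6G enriched libraries and 0 and 0 in the unlabelled ones (adjusted p = 0.0146), and SSSCA1-AS1 69 and 108 against 0 and 2 (adjusted p = 0.0489). No fold is given for either. Without 1 library the count of 3 ranged from 0 (s6G enriched replicate 2, s6G input replicate 2 or unlabelled input replicate 1 left out) and 1 (the other s6G libraries or unlabelled input replicate 2) to 7 and 24 (unlabelled enriched replicates 2 and 1). With the replicate block it was 5.

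**Figure D3:**
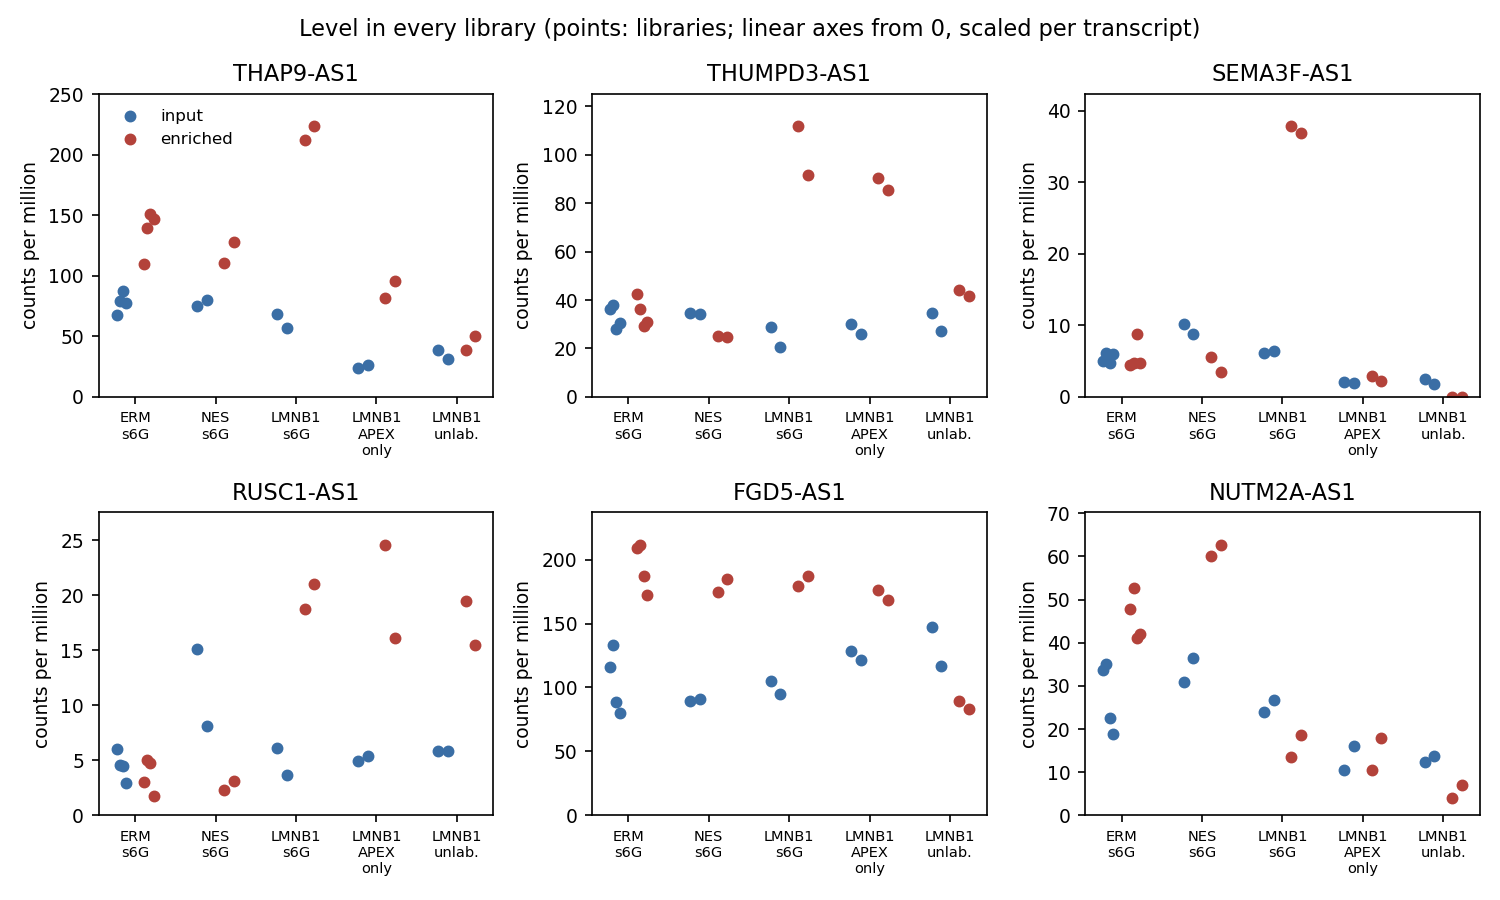
CPM (y axes, linear from 0, 1 panel a transcript) in every library of the ERM, NES and LMNB1 arms (x axes; blue input, red enriched). THAP9-AS1 and FGD5-AS1 have all enriched above all input libraries in the ERM, NES and s6G and APEX-only lamina arms, THUMPD3-AS1 has them so in the lamina arms and NUTM2A-AS1 in the ERM and NES arms, and SEMA3F-AS1 has its highest enriched libraries in the s6G lamina arm.

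In the cytosol antisense transcripts moved in both directions. Of 240 tested with NES s6G, 48 rose and 36 fell, beside 28.7% and 26.4% of all genes, and the median was 0.03 against 0.01. Enriched and input libraries did not overlap for 90 transcripts in the higher and 72 in the lower direction, 37.5% and 30% of those tested, against 42.1% and 37.4% of all genes. HMGN3-AS1, overlapping the gene of a nucleosome-binding protein, held 10.6 and 8.25 CPM in enriched libraries against 2.77 and 1.77 CPM in inputs and rose by 1.99 ± 0.35 (adjusted p = 0.000117). JHDM1D-AS1, now KDM7A-DT after a histone demethylase gene, rose by 1.92 ± 0.35 (adjusted p = 0.000166). TAPT1-AS1 rose by 2.71 ± 0.95 (adjusted p = 0.0215) and SH3RF3-AS1, head to head with a ubiquitin ligase gene, by 2.08 ± 0.70 (adjusted p = 0.0174), both from inputs below 1 CPM.

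The largest falls in the cytosol were in PITRM1-AS1 (by 2.90 ± 0.64), CA3-AS1, CCDC183-AS1 and RAMP2-AS1. PITRM1-AS1 lies wholly inside PITRM1, the gene of a mitochondrial peptidase. It held 0.851 and 0.258 CPM in enriched libraries against 5.17 and 3.01 CPM in inputs. It reaches the level minimum only with the help of the thionucleoside inputs, and these NES inputs are among them. The choice of transcripts itself thus favours a fall from them, so the fall of PITRM1-AS1 is given without a test. PITRM1 fell as well, by 2.02 ± 0.17 (adjusted p = 4.41e-08). Among the most abundant transcripts FGD5-AS1 rose by 0.93 ± 0.17 (adjusted p = 0.000124), PAXIP1-AS1 by 1.08 ± 0.20 (adjusted p = 0.000148) and THAP9-AS1 by 0.55 ± 0.19 (adjusted p = 0.0181). LRRC75A-AS1 fell by 0.72 ± 0.21 (adjusted p = 0.00771) and VPS9D1-AS1 by 1.73 ± 0.27 (adjusted p = 2.94e-05). The count of calls went from 84 to 53 without input replicate 1 and to 53 without input replicate 2. Single calls lost were TAPT1-AS1 (largest adjusted p 0.126, without enriched replicate 2), SH3RF3-AS1 (0.0792, input replicate 2), THAP9-AS1 (0.0977, input replicate 1) and LRRC75A-AS1 (0.151, input replicate 2).

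At the endoplasmic reticulum membrane 48 of 240 rose and 39 fell, beside 34.3% and 28.9% of all genes, and the median was 0.03 against 0.11. The groups of 4 did not overlap for 66 in the higher and 18 in the lower direction, 27.5% and 7.5%, against 39.4% and 18.5% of all genes. With libraries scaled by total counts, which moves the median of all genes from 0.11 to 0.43, the split was 83 and 20, and with RLE scaling 41 and 45. WNT5A-AS1 lies head to head with the gene of the secreted ligand WNT5A. It was at 4.58 to 7.67 CPM in the 4 enriched libraries and at 0.162 to 1.40 CPM in the 4 inputs. The groups did not overlap, and it rose by 2.98 ± 0.47 (adjusted p = 2.03e-05). CARD8-AS1, head to head with an inflammasome sensor gene, rose by 1.56 ± 0.32 (adjusted p = 0.000303), MNX1-AS1, beside a homeobox gene, by 1.16 ± 0.24 (adjusted p = 0.000315), and USP27X-AS1, beside a deubiquitinase gene, by 1.36 ± 0.47 (adjusted p = 0.0162, and 0.0555 without input replicate 4).

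ATP2A1-AS1, which overlaps the gene of a muscle calcium pump, ranged from 0.632 to 2.90 CPM after ERM enrichment and from 5.59 to 8.16 CPM before it, and fell by 1.95 ± 0.32 (adjusted p = 2.89e-05). TMC3-AS1 fell by 2.45 ± 0.53 (adjusted p = 0.000480), MMP25-AS1 by 1.89 ± 0.33 (adjusted p = 6.79e-05) and CCDC183-AS1 by 1.75 ± 0.35 (adjusted p = 0.000243). The partner MMP25 fell as well (-2.535 ± 0.623, adjusted p = 0.00158). The ERM and NES libraries are separate samples. In both, 35 transcripts rose (72.9% of each list) and 21 fell (53.8% of the ERM list and 58.3% of the NES list). None moved in opposite directions. No share over all genes is given beside these overlaps, so they are not read as particular to the transcripts. The test of the difference called none of the 240 (0.0064% of all genes higher and 0% lower), although 23 had an unadjusted p under 0.05. DESeq2 called 1 and the replicate block 3.

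Set against the cytosol, more antisense transcripts were higher than lower at the lamina. The difference of the s6G log2 fold changes, LMNB1 minus NES, was called positive for 45 of 248 transcripts (18.15%) and negative for 10 (4.03%). Of all genes 15.4% were higher and 19.2% lower, so the share higher was near that of all genes, while fewer transcripts were lower. NES had no unlabelled arm, and in the unlabelled LMNB1 arm the median log2 fold change was 0.37. What the beads hold without biotin-phenol thus cannot be told apart in this difference. The median difference was 0.50 against -0.03, and 159 differences were above 0 (64.1% against 49.1% of all genes). The 45 had medians of 1.43 at the lamina and -1.06 in the cytosol, and the 10 had -0.26 and 1.39. These medians come from the same libraries as the differences and add nothing independent. Without NES input replicate 1 the count fell from 55 to 35. With total-count scaling, which moves the median of all genes to 0.23, the split was 49 and 4.

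EDRF1-AS1, inside an erythroid differentiation gene, had the largest difference (4.19 ± 0.94, adjusted p = 0.00142). It held 8.13 and 8.53 CPM in the enriched LMNB1 s6G libraries against 1.17 and 0.776 CPM in inputs, and 0.851 and 0.902 CPM in the enriched NES libraries against 2.95 and 1.59 CPM. Enriched libraries lay above the inputs at the lamina and below them in the cytosol. RUSC1-AS1 differed by 3.88 ± 0.64 (adjusted p = 7.68e-05), with NES libraries of 2.31 and 3.09 CPM enriched against 15.1 and 8.14 CPM in input. As given above, its enriched libraries also lay above its inputs in the unlabelled lamina arm. RUSC1 itself fell in both places (by 0.73 ± 0.16 in the cytosol) and its difference, -0.41 ± 0.29, was not called.

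PITRM1-AS1 differed by 3.81 ± 0.76, with 5.24 and 5.96 CPM enriched at the lamina against inputs of 2.59 and 2.13 CPM. Its s6G inputs in both places helped it to reach the level minimum. This difference is thus not independent of the choice of transcripts and is given without a test. PITRM1 also differed, by 1.39 ± 0.26 (adjusted p = 0.000306). PRC1-AS1, inside the gene of a spindle midzone protein, differed by 3.67 ± 0.76 (adjusted p = 0.000779), and PRC1 by -0.0049 ± 0.30. In the unlabelled MITO arm PRC1-AS1 also rose, by 5.28 ± 1.13 (adjusted p = 0.0138), on few counts. SEMA3F-AS1 differed by 3.38 ± 0.52 (adjusted p = 4.31e-05) and THUMPD3-AS1 by 2.27 ± 0.36 (adjusted p = 5.28e-05). THAP9-AS1 was enriched in both places, more at the lamina (0.93 ± 0.29, adjusted p = 0.0165), while THAP9 was lower at the lamina than in the cytosol (-1.37 ± 0.30, adjusted p = 0.00136). The THAP9-AS1 call was lost in 5 of 8 fits with a library left out (NES enriched replicate 1, NES inputs 1 and 2, LMNB1 enriched replicate 1 and LMNB1 input replicate 2, adjusted p 0.0726, 0.0679, 0.101, 0.0543 and 0.152) and with no filter.

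Of the 10 that were lower at the lamina, NUTM2A-AS1, a transcript on chr10:87238667-87342558 that lies apart from its partner, had the lowest adjusted p. It held 60.2 and 62.7 CPM in the enriched NES libraries against inputs of 30.8 and 36.5 CPM, and 13.5 and 18.7 CPM in the enriched lamina libraries against inputs of 24.0 and 26.8 CPM. The groups stand in opposite order in the 2 places, and the difference was -1.79 ± 0.31 (adjusted p = 0.00016). SH3RF3-AS1 (-2.95 ± 1.03, adjusted p = 0.0295), MAFG-AS1, now MILIP (-2.26 ± 0.61, adjusted p = 0.00636), and MAN1B1-AS1, beside the gene of a mannosidase of glycoprotein quality control (-2.01 ± 0.58, adjusted p = 0.00997), were the others with large differences. SH3RF3-AS1 lost its call in 6 of 8 fits, its adjusted p reaching 0.453 without LMNB1 input replicate 2 and 0.0504 to 0.0797 without either NES enriched or either NES input library or LMNB1 enriched replicate 1. MAN1B1-AS1 reached 0.0756 without NES enriched replicate 1 and 0.0545 without LMNB1 input replicate 1.

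**Figure D4:**
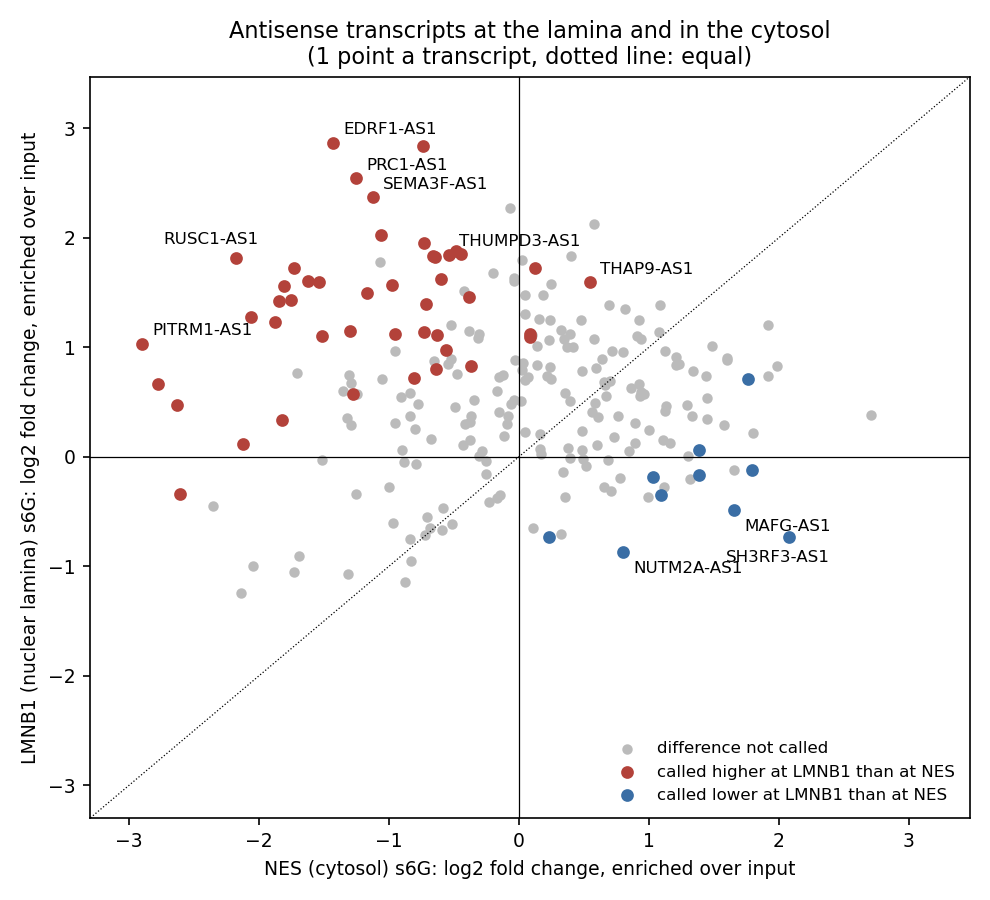
Log2 fold change of enriched over input LMNB1 s6G libraries (y axis) against that of NES s6G libraries (x axis), 1 point a transcript, with differences called higher at the lamina in red (45) and lower in blue (10). The called points spread across the upper left, with EDRF1-AS1, PRC1-AS1 and SEMA3F-AS1 at the top, and fewer lie at the lower right.

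Partner genes had lower medians than the antisense transcripts at the lamina and higher ones in the cytosol and at the endoplasmic reticulum membrane. Over 225 pairs tested with LMNB1 s6G the median log2 fold change was 0.68 for the antisense transcript and 0.13 for its partner. The transcript was above its partner in 162 pairs. With LMNB1 APEX only the medians were 0.47 and -0.03 (above in 162 of 225). In the unlabelled LMNB1 arm they were 0.41 and -0.14 (above in 150 of 225). The unlabelled MITO arm, also without biotin-phenol, had 0.70 and -0.31 (above in 134 of 201). The gap is thus not particular to the lamina or to labelled cells. Over 218 pairs the medians were 0.02 and 0.35 with ERM, the transcript being above in 80, and -0.0043 and 0.34 with NES, above in 78. For the difference between lamina and cytosol, 226 pairs had medians of 0.56 and -0.41 and the transcript was above in 159. By arrangement the lamina median was 0.58 for head-to-head transcripts (4 of 93 rose) and 0.74 for overlapping ones (3 of 69 rose and 1 fell). For those not placed it was 0.67 (3 of 76 rose and 1 fell), and of all genes 5.37% rose and 7.64% fell. The difference between lamina and cytosol had medians of 0.12 (15 higher and 5 lower of 93), 0.64 (11 and 3 of 71) and 0.60 (17 and 0 of 74) in the same order. There 15.4% of all genes were higher and 19.2% lower. Differences between arrangements were not tested.

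Other noncoding names give a scale for these values. For the difference between lamina and cytosol, host genes of small nucleolar RNAs (SNHG names) had a median of 1.19, with 10 of 18 called higher and 1 lower. Antisense names ending in -AS2 or a higher number had 1.53 (9 higher and 3 lower of 17, among them PSMD6-AS2 at 3.80 ± 0.66). Names of transcripts from introns (-IT) had 2.63 (7 of 11 higher, NPTN-IT1 at 4.29 ± 0.54), and intergenic LINC names 0.23 (15 higher and 8 lower of 100). Of 8 long noncoding RNAs known as nuclear, 3 were higher, among them KCNQ1OT1 (2.66 ± 0.51) and NEAT1 (2.56 ± 0.85), the scaffold of paraspeckles. Of 6 known as cytosolic, 2 were higher, such as ZFAS1 (1.72 ± 0.49), and 2 lower, such as NORAD (-1.55 ± 0.28). Among genes that degrade RNA, 9 of 17 nuclear factors were higher and 3 lower (RBM7, which guides the exosome, at -2.25 ± 0.44), and 4 of 10 cytosolic factors higher and 1 lower (XRN1 at 1.46 ± 0.28 and DCP2 at -1.67 ± 0.29). Of all genes 15.4% were higher and 19.2% lower, and no list was tested as a list.

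Inside mitochondria, whose matrix holds RNA of the mitochondrial genome, no antisense transcript was called with s6G, s4U or APEX only. Of 222 tested, 3, 4 and 8 had an unadjusted p under 0.05, and DESeq2 called 0, 0 and 1. Over all genes 0.29%, 0.112% and 0.251% rose and 0.0264%, 0% and 0.0198% fell. The medians were 0.10, 0.09 and 0.25, against 0.01, 0.01 and -0.01. In these enriched libraries 26.3 to 58.2% of counts were mitochondrial RNA, and on the CPM scale the groups did not overlap in the lower direction for 128, 64 and 95 transcripts (57.7%, 28.8% and 42.8%, against 63.5%, 42.9% and 62.3% of all genes) and in the higher direction for 3, 2 and 7 (against 1.27%, 3.36% and 2.94% of all genes). With the replicate block, whose numbers pair the libraries of one replicate, there were 1, 4 and 7 calls, and with total-count scaling, which moves the median of all genes by -0.87, -0.44 and -0.74, there were 7, 0 and 1. THAP9-AS1 shows the values behind this: 69.5 and 34.0 CPM in the enriched s6G libraries and 57.8 and 62.6 CPM in their inputs, which overlap.

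None of the differences between the MITO arms was called either. For s6G minus APEX only, s4U minus APEX only and s6G minus s4U no gene of the table was called in either direction (0%), and 2, 0 and 1 transcripts had an unadjusted p under 0.05, while DESeq2 called none. For s6G minus unlabelled, 0.277% of all genes were higher and 0.099% lower but no transcript, 31 transcripts had an unadjusted p under 0.05, DESeq2 called 5, the replicate block 7 and total-count scaling 14, all lower (it moves the median of all genes from 0.09 to -1.0). Leaving out unlabelled enriched replicate 2 gave 8 calls there.

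In the unlabelled MITO arm 13 of 222 transcripts rose and 2 fell (5.78% and 4.09% of all genes), with a median of 0.60 against -0.12. The groups did not overlap for 54 in the higher and 40 in the lower direction (21.2% and 25.3% of all genes). These calls rest on few counts: none of 39 transcripts at 10 CPM or more was called, against 9 of 89 below 3 CPM. INTS6-AS1 had 4 and 10 counts in the enriched and 2 and 1 in the input libraries, PRC1-AS1 2 and 9 against 1 and 1, DARS-AS1 6 and 5 against 4 and 1, and GMDS-AS1 8 and 16 against 3 and 8. RBM26-AS1 had no count in either enriched library against 20 and 37 in the inputs, at least 2.22-fold lower when set against a floor of 3 counts over the group, and ZBTB11-AS1 none against 22 and 19, at least 1.61-fold lower. The count of 15 became 0 without input replicate 1 or input replicate 2, 22 without enriched replicate 1 and 13 without enriched replicate 2, and 27 with the replicate block. With total-count scaling, which moves the median of all genes from -0.12 to 0.08, 13 rose and none fell.

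Before any pull-down, a few antisense transcripts differed between cells fed s6G and cells fed no thionucleoside. The minimum of 1 CPM was set over all inputs, and 25 of the 253 reach it only with the help of the 12 thionucleoside inputs, so counts over the transcripts are given as a description. Over the 12 thionucleoside inputs alone 244 reach it, and for the rest the choice favours a fall with a thionucleoside. PITRM1-AS1 and PARD6G-AS1 are among the 25, and their input levels are given without a test, since the choice of transcripts itself favours a difference there. In MITO cells 4 of 209 tested were higher with s6G and 1 was lower (2.16% and 3.41% of all genes), and in LMNB1 cells 6 were higher and none lower (2.36% and 2.5%). With s4U 1 was higher (0.281% and 1.65%). Of the 202 tested that reach 1 CPM without the thionucleoside inputs, the counts were 3 and 1, 4 and 0, and 1 and 0, with medians of 0.08, 0.15 and -0.05.

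In MITO cells with s6G, PITRM1-AS1 held 2.85 and 4.49 CPM, while the 4 MITO inputs without thionucleoside ranged from 0.175 to 0.950 CPM. In LMNB1 cells it held 2.59 and 2.13 CPM with s6G and 0.166 to 0.489 CPM without. The s6G inputs of NES cells held 5.17 and 3.01 CPM, while those of ERM cells held 0.794 to 1.22 CPM. PARD6G-AS1, in the gene of a cell polarity protein, held 4.23 and 6.79 CPM in LMNB1 inputs with s6G and 0 to 1.16 CPM without.

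SEMA3F-AS1 was the one transcript at 1 CPM or more without the thionucleoside inputs that was called higher in both constructs, whose libraries are separate samples. With s6G, its MITO inputs read 6.26 and 4.49 CPM, and 0.502 to 1.40 CPM without thionucleoside (2.45 ± 0.46, adjusted p = 0.0148), and LMNB1 inputs read 6.11 and 6.40 CPM with s6G and 1.83 to 2.56 CPM without (1.67 ± 0.42, adjusted p = 0.0440). The s6G groups lay wholly above the others, and with s4U it held 1.78 CPM, above the MITO inputs without thionucleoside, and 0.716 CPM, inside their range (log2 fold change 0.29 ± 0.56, adjusted p = 0.916). SEMA3F gave 0.02 ± 0.74 and -0.38 ± 0.75. The LMNB1 call of SEMA3F-AS1 was lost without any 1 of the 6 libraries compared, while its log2 fold change stayed at 1.53 to 1.8. The LMNB1 s6G inputs also stand in the lamina enrichment of SEMA3F-AS1, so these values share libraries.

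ZBTB11-AS1, beside a zinc finger gene, read 11.1 and 14.6 CPM with s6G and 3.27 to 5.52 CPM without thionucleoside in MITO cells (1.62 ± 0.36, adjusted p = 0.0277), and SDCBP2-AS1 7.40 and 9.26 CPM against 2.61 to 3.76 CPM (1.52 ± 0.39, adjusted p = 0.0435). ZFHX4-AS1 had no count in the MITO s6G inputs and a mean of 2.07 CPM without thionucleoside, at least 4.89-fold lower with s6G against the floor of 3 counts (adjusted p = 0.0411). In LMNB1 cells THAP9-AS1 held 68.6 and 56.7 CPM against 24.3 to 39.1 CPM (1.18 ± 0.19, adjusted p = 0.00917). CD27-AS1 held 4.00 and 2.13 CPM against 0.326 to 1.16 CPM (2.22 ± 0.55, adjusted p = 0.0426), and NUTM2A-AS1 24.0 and 26.8 CPM against 10.4 to 16.1 CPM (1.06 ± 0.20, adjusted p = 0.0191). With s4U, LAMTOR5-AS1, beside the gene of a Ragulator subunit, held 9.38 and 13.1 CPM against 3.01 to 5.41 CPM (1.54 ± 0.35, adjusted p = 0.0475).

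Many of these input calls depended on single libraries. The MITO s6G count of 5 became 0 without either s6G input, 2 without APEX-only input replicate 1 or unlabelled input replicate 1, and 3 without APEX-only input replicate 2. The LMNB1 count of 6 became 0 and 1 without s6G inputs 1 and 2, 2 without either APEX-only input and 3 without either unlabelled input. The s4U count of 1 became 0 without any of the 6 libraries. With APEX-only inputs as the sole reference 1, 1 and 0 were called. With the replicate block the MITO s6G count was 11, and with total-count scaling, which moves the median of all genes from -0.03 to -0.15, it was 3 higher and 3 lower. The MITO call of SEMA3F-AS1 was lost only without s6G input replicate 1 (adjusted p 0.122) or replicate 2 (0.0608), and the LMNB1 call of THAP9-AS1 only without s6G input replicate 1 (0.126). The largest adjusted p of the other input calls named here, NUTM2A-AS1 aside, lay between 0.163 and 0.368. Neither s6G against s4U inputs in MITO cells (21 transcripts at an unadjusted p under 0.05) nor the difference of the s6G effects between the constructs (2) gave a call by edgeR or DESeq2, and no gene of the table passed either test (0%).

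**Figure D5:**
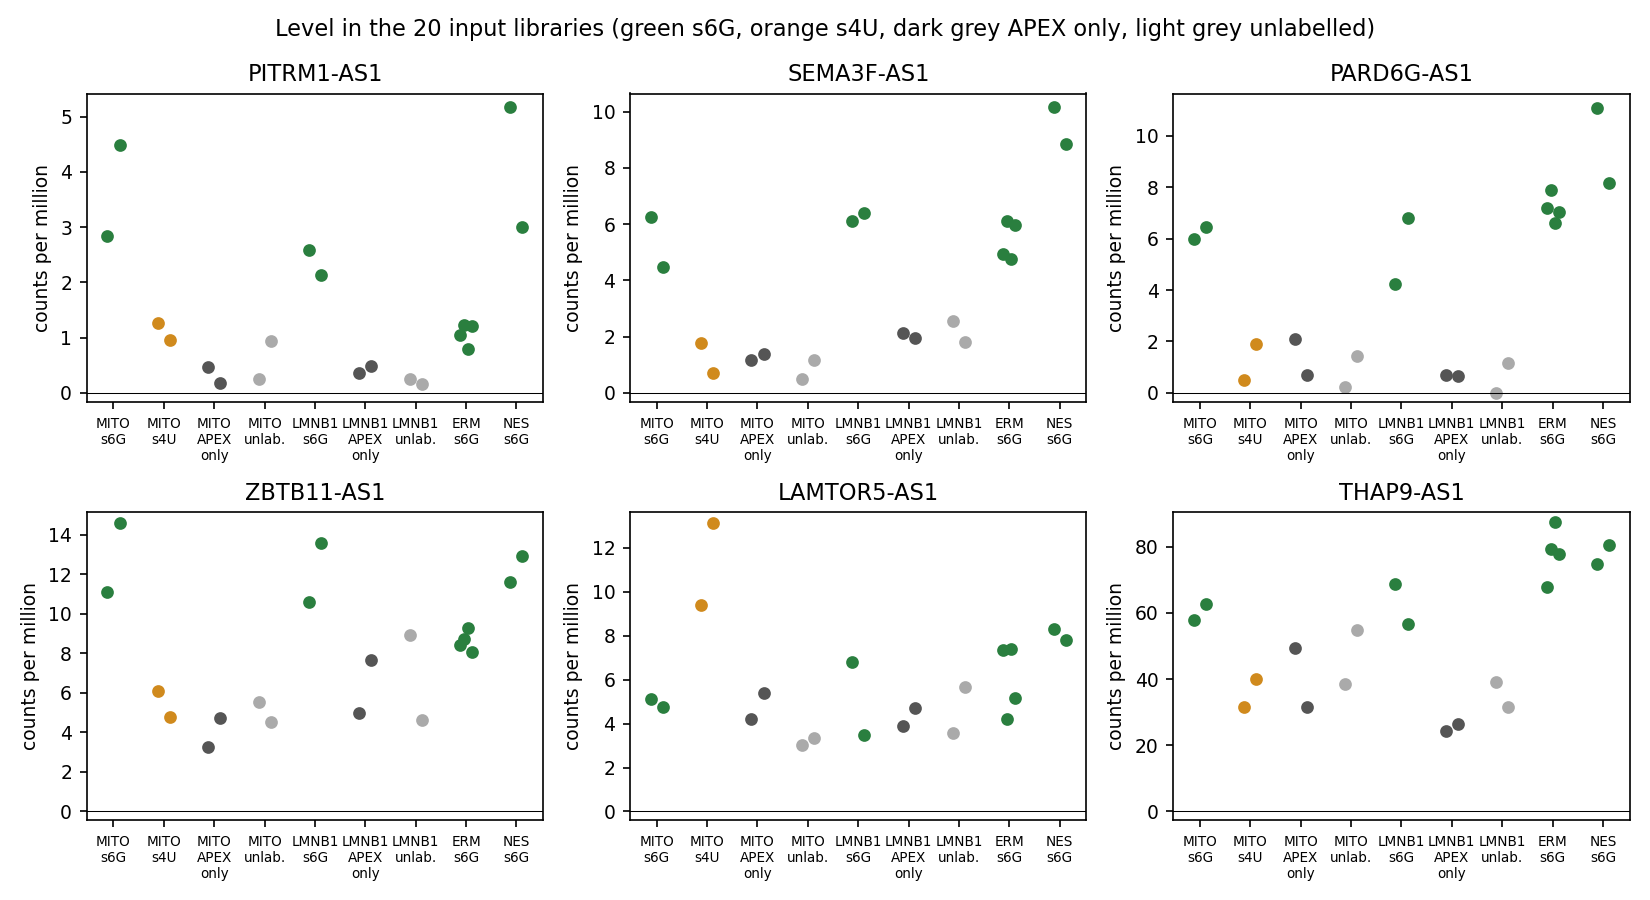
CPM (y axes, linear, 1 panel a transcript) in the 20 input libraries by construct and treatment (x axes; green s6G, orange s4U, dark grey APEX only, light grey unlabelled). SEMA3F-AS1 and PARD6G-AS1 lie highest in s6G inputs of all 4 constructs, PITRM1-AS1 in those of 3 constructs and not of ERM, and LAMTOR5-AS1 in s4U inputs.

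Across the labelled arms THAP9-AS1 was called higher most often, in ERM, NES, LMNB1 s6G and LMNB1 APEX only. FGD5-AS1 and PAXIP1-AS1 were called higher in ERM, NES and LMNB1 s6G, and LRRC75A-AS1 and VPS9D1-AS1 lower in the same 3. The ERM values were 0.50 ± 0.13 for THAP9-AS1 (110 to 151 CPM enriched against 67.8 to 87.3 CPM in input), 0.61 ± 0.12 for FGD5-AS1, -0.88 ± 0.15 for LRRC75A-AS1 and -1.57 ± 0.19 for VPS9D1-AS1, with adjusted p of 0.00247, 0.000156, 4.22e-05 and 1.04e-06. Of the 12 that rose at the lamina, 4 also rose in the cytosol (33.3% of the lamina and 8.33% of the NES list), FGD5-AS1, PAXIP1-AS1 and THAP9-AS1 among them. Of the same 12, 5 fell in the cytosol (41.7% and 13.9%): GABPB1-AS1, RUSC1-AS1, SEMA3F-AS1, THUMPD3-AS1 and TMEM147-AS1. These overlaps too have no share over all genes beside them and are given as a description.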

How the data were processed

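The authors deposited a table of counts per gene for 40 libraries, 20 input and 20 enriched, in 18 groups. Reads were aligned with HISAT2 2.1.0 to GRCh38 and counted with HTSeq 0.7.2, per the submitters' processing notes, and the strand setting is not given in the sources used here. Enriched libraries had 15 PCR cycles and inputs 11, per the labels' protocols. The authors also deposited log2(TPM + 1) values for the MITO groups, used here only to describe levels per length. The authors' tables of fold changes were not used.

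Transcripts and gene lists were chosen with earlier results of these data known. Counts were tested with edgeR 4.0.16 (quasi-likelihood test, TMM scaling, filterByExpr, no replicate block) in R 4.3.3, with Benjamini-Hochberg adjustment over all genes tested (14239 to 16525) and a threshold of 0.05. Each of 22 comparisons was fitted on the libraries of its construct or constructs, and differences of enrichment as interaction terms. Scripts were tested on simulated counts. Depth was 123341 to 14496768 counts a library. Named transcripts were up to 4 called with the highest and up to 4 with the lowest change per comparison (for comparisons of a pair of groups, only where the groups did not overlap), the 3 with the highest input level, up to 5 called in the same direction in the most labelled arms, the 3 rows on each side of the level minimum, the partners of those named for change or level, and up to 2 called genes per list and comparison. Any other name was picked with its values in view. Results that need a withheld item are not reported here.

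Enriched and input libraries with the same number come from the same biological replicate, per the series' design. Correlations of their deviations from the group means were 0.53, 0.64, 0.49 and 0.10 in the MITO arms, 0.15 to 0.20 in ERM, 0.19 in NES, and 0.50, 0.35 and 0.04 in the LMNB1 arms. In ERM, replicates 1 and 2 went together, and so did 3 and 4. Correlations within these sets, whatever the number, were 0.013 to 0.21, and those across them were -0.26 to -0.065. Alternatives were RLE or total-count scaling, no filter, DESeq2 1.42.0, the replicate block, APEX-only inputs as the sole reference, and each library left out in turn.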

Additional observations from a re-analysis of the deposited data

Results flagged for a closer look

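Among 82 groups of 4 libraries tested for a library far from the rest, 3 held one, and chance gives about 1 in 20. All were enriched ERM libraries: SEMA3F-AS1 at 8.79 CPM in replicate 3 (others 4.49, 4.69 and 4.74 CPM), TAPT1-AS1 at 1.74 CPM in replicate 2 (others 5.04, 5.05 and 5.66 CPM) and USP27X-AS1 at 2.81 CPM in replicate 1 (others 1.52, 1.58 and 1.74 CPM).

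Enrichment differed between lamina and cytosol by the interaction test (edgeR quasi-likelihood, adjusted p given in the report). The log2 differences, LMNB1 minus NES, were 4.19 for EDRF1-AS1, 3.88 for RUSC1-AS1, 3.67 for PRC1-AS1 and 0.93 for THAP9-AS1, and -2.95 for SH3RF3-AS1, -2.26 for MAFG-AS1, -2.01 for MAN1B1-AS1 and -1.79 for NUTM2A-AS1. PITRM1-AS1 differed by 3.81, given without a test, since its s6G inputs helped it to reach the level minimum. NES had no unlabelled arm, so what the beads hold without biotin-phenol cannot be told apart in any of these differences. At the lamina, s6G differed from unlabelled enrichment for FGD5-AS1 (log2 difference 1.25), for SEMA3F-AS1 (37.4 CPM in the s6G enriched libraries and no count in the unlabelled ones) and for SSSCA1-AS1 (11.1 CPM on average in the s6G enriched libraries, 0 and 0.516 CPM in the unlabelled ones).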

How the results depend on the processing

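No named value reversed under any alternative run. Of 66 named values, 62 kept their call with RLE scaling, 60 with total-count scaling, 61 with no filter and 65 with the replicate block, and 63 of 65 kept it with DESeq2. With APEX-only inputs as the reference 2 of 11 input values did. Each library left out in turn kept 245 of 384 calls, and 29 of the 66 values held in every such fit. Low counts limit most transcripts, which lie below 10 CPM.

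Counts of called transcripts moved by over 1.5 times as follows, and the cause was not tested. With total-count scaling they were 7 (MITO s6G), 1 (MITO APEX only), 14 (MITO s6G minus unlabelled), 1 (ERM minus NES) and 5 (LMNB1 s6G minus unlabelled). With no filter they were 2 (MITO s6G minus unlabelled), 5 (LMNB1 APEX only), 2 (LMNB1 unlabelled), 7 (LMNB1 s6G minus unlabelled), 12 (MITO s6G inputs) and 13 (LMNB1 s6G inputs). With DESeq2 they were 1 (MITO APEX only), 23 (MITO unlabelled), 5 (MITO s6G minus unlabelled), 1 (ERM minus NES), 22 (LMNB1 s6G), 7 (LMNB1 APEX only), 3 (LMNB1 unlabelled) and 6 (LMNB1 s6G minus unlabelled). With the replicate block, which pairs libraries, they were 27 (MITO unlabelled), 7 (MITO APEX only), 4 (MITO s4U), 1 (MITO s6G), 7 (MITO s6G minus unlabelled), 3 (ERM minus NES), 21 (LMNB1 s6G), 5 (LMNB1 APEX only), 5 (LMNB1 s6G minus unlabelled) and 11 (MITO s6G inputs). Inputs of different arms share only a number, so that last block is no pairing by design. Among named values the block ended only the call of ZBTB11-AS1 in the unlabelled MITO arm. APEX-only inputs as reference gave 1 (MITO s6G), 1 (LMNB1 s6G) and 0 (MITO s4U), and RLE scaling 0 (MITO s4U inputs).

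With 1 library left out the counts ranged from 0 to 22 (MITO unlabelled), 0 to 8 (MITO s6G minus unlabelled), 76 to 91 (ERM), 53 to 64 (NES), 2 to 3 (LMNB1 s6G), 0 to 0 (LMNB1 APEX only), 0 to 14 (LMNB1 unlabelled), 0 to 24 (LMNB1 s6G minus unlabelled), 35 to 44 (LMNB1 minus NES), 0 to 4 (MITO s6G inputs), 0 to 3 (LMNB1 s6G inputs) and 0 to 0 (MITO s4U inputs and the remaining comparisons).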
